A study of Oryza sativa with 8 samples.

Results

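The young leaves of rice plants that overexpress Ghd7 were compared with young leaves of their parent cultivar on Affymetrix rice arrays. The arrays were chosen by their sample titles, 2 of OX-Ghd7HJ19 leaves and 2 of HJ19 leaves, and these 4 were among 8 arrays in the series. The transgenic plants carried a Ghd7 overexpression construct in Hejiang19 (HJ19), and the wild-type plants were untransformed Hejiang19. Both were grown in the field under natural conditions and sampled at the vegetative stage (35 days old) in 1 collection, 3 hours past dawn, so daily rhythms were not sampled. The labels name neither the promoter that drives Ghd7 nor the number of transgenic lines or of plants in a sample. They call the replicates biological, and the p-values rest on the spread between replicate arrays of both tissues in the series. The other 4 arrays held 0.1 cm panicles, 2 of OX-Ghd7HJ19 and 2 of HJ19, and served to estimate the spread and to set the leaf effect beside the panicle effect. 1 label shared by every sample speaks of a different leaf and stage, and the titles, tissue labels and sampling notes were followed instead. The effect of each probe set is the mean of the OX-Ghd7 leaves minus the mean of the wild-type leaves on the log2 scale, taken over 57194 of 57381 probe sets after control probe sets were left out.

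Ghd7 is a CCT-domain regulator that delays flowering in long days and also affects plant height and grain number. It is known to lower Hd3a, the florigen gene of the leaf, whose product travels to the shoot tip and acts there with APETALA1-like MADS factors. A young leaf also builds chloroplasts: nuclear genes supply the enzymes that turn glutamate into tetrapyrroles and then chlorophyll, and the factors with which the plastid transcribes and translates its own genes. The series sought genes downstream of Ghd7.

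No probe set was paired with Ghd7 by name, so the overexpressed gene itself gave no check of the labels. Among 64 reporter probe sets, which are array controls left out of all tests, 2 stood apart between the leaf groups. The first read 11.26 and 11.45 in OX-Ghd7 leaves, against 3.56 and 3.53 in wild-type leaves. It read 3.87 and 3.91 in OX-Ghd7 panicles, against 3.64 and 3.59 in wild-type panicles. The second read 12.18 and 14.26 in OX-Ghd7 leaves, against 5.78 and 4.35 in wild-type leaves. Its panicle values were 4.50 and 4.51 in OX-Ghd7 panicles, against 4.41 and 4.57 in wild-type panicles. Both therefore separated the transgenic leaves from all 6 other arrays, and neither was high in the panicles labelled as transgenic. The other 62 reporter probe sets differed between the leaf groups by -0.79 to 0.46. The sources used here do not name the sequence that these probe sets detect.

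Replicate leaf arrays correlated with r of 0.9944 in OX-Ghd7 leaves and 0.9909 in wild-type leaves across probe sets. The median SD was 0.099 in OX-Ghd7 leaves and 0.117 in wild-type leaves, against 0.099 in OX-Ghd7 panicles and 0.066 in wild-type panicles. The fit described below pooled the spread of both tissues for each probe set, so the leaf p-values also rest on the panicle spread. The difference between 3-prime and 5-prime control probe sets of a glyceraldehyde-phosphate dehydrogenase gene, a sign of RNA integrity, was 2.54 and 2.49 in OX-Ghd7 leaves, against 2.48 and 2.26 in wild-type leaves. Of 7 measured green leaf markers, 5 differed by at most 0.38 and did not pass the test, and these 5 lay above the 99th percentile of every leaf array. The other 2 were PORA and PORB, which fell and are described with chlorophyll synthesis. None of 6 meristem markers, 9 floral organ markers or 3 root markers passed, and among 4 markers of senescing leaves only OsNYC1 did, at -0.54. The log2 levels of the floral markers summed to 33.1 and 33.7 in OX-Ghd7 leaves, against 34.9 and 34.0 in wild-type leaves. The corresponding sums for the senescence markers were 35.4 and 35.1 in OX-Ghd7 leaves and 35.9 and 36.0 in wild-type leaves.

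More probe sets were lower than higher in the transgenic leaves. The test was limma with 1 mean per group over all 8 arrays, and a probe set passed at a Benjamini-Hochberg adjusted p under 0.05 over all 57194. Of these, 782 (1.37%) rose and 1747 (3.05%) fell. The change was at least 2-fold for 268 of the rises and 674 of the falls, and at least 4-fold for 68 rises and 102 falls. In every one of the 2529 probe sets that passed (4.42%), both OX-Ghd7 leaves lay on the same side of both wild-type leaves. Such separation was common without a call and lends no support of its own. Among all 17905 genes, each counted by 1 probe set, both OX-Ghd7 leaves lay above both wild-type leaves in 20.7% and below both in 27.4%. The median effect over all probe sets was close to 0, at 0.027 in the dimmest of 4 equal bins of level and -0.014 in the brightest. Calls became more frequent with level: in the brightest bin 2.88% rose and 6.66% fell, against 0.28% and 0.217% in the dimmest. When only the 4 leaf arrays were fitted, 101 probe sets (0.177%) rose and 224 (0.392%) fell, and all 325 had also passed with 8 arrays. Rises numbered 281 and falls 770 without transgenic leaf replicate 2, and 1318 and 1974 without wild-type leaf replicate 1, so the counts depend on single arrays.

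**Figure D1:**
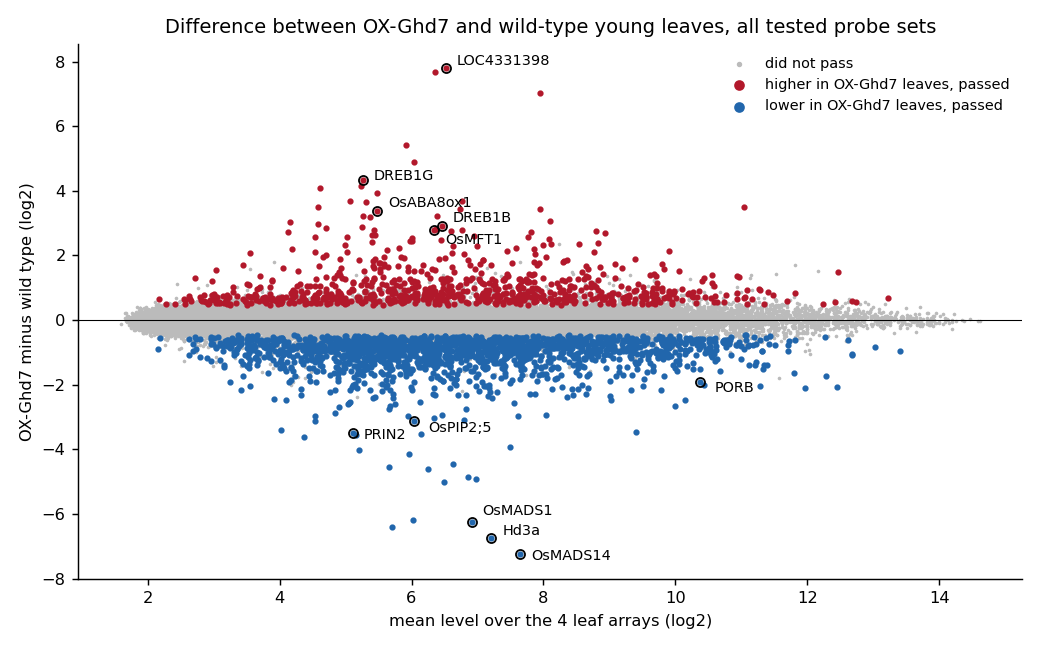
Difference between OX-Ghd7 and wild-type young leaves (vertical axis, log2) against the mean level over the 4 leaf arrays (horizontal axis, log2) for all 57194 probe sets. Red points rose and blue points fell at an adjusted p under 0.05, 782 and 1747 probe sets, and circled points carry gene names.

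The largest rise of all belonged to a gene without a name, LOC4331398. Its probe set read 10.46 and 10.37 in OX-Ghd7 leaves, against 2.63 and 2.62 in wild-type leaves, a change of 7.79 ± 0.13 (log2 ± SE, adjusted p = 2.22e-08). A second probe set of the same gene changed by 7.66 ± 0.15. The next largest rise was that of a probe set paired with no gene, which read 11.29 and 11.63 in OX-Ghd7 leaves, against 4.50 and 4.35 in wild-type leaves. Its change was 7.03 ± 0.18 (adjusted p = 3.72e-07). Both were also higher in OX-Ghd7 panicles, where the effect was 9.54 for LOC4331398 and 3.78 for the unpaired probe set. LOC4340325, another unnamed gene, which is mentioned because it moved alike in both tissues, changed by 5.41 ± 0.17 in leaves and 5.64 in panicles. A second probe set of LOC4340325 did not pass in leaves, at -0.33.

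Among genes with a name, 14 rises and 15 falls were singled out because they passed with 8 arrays and with the 4 leaf arrays alone. Both OX-Ghd7 leaves also had to lie beyond both wild-type leaves. All 29 also passed with any 1 of the 8 arrays left out, with a largest adjusted p of 0.0201. A fold is given as a lower bound wherever the lower group mean was below its arrays' median, where a level may be background.

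**Figure D2:**
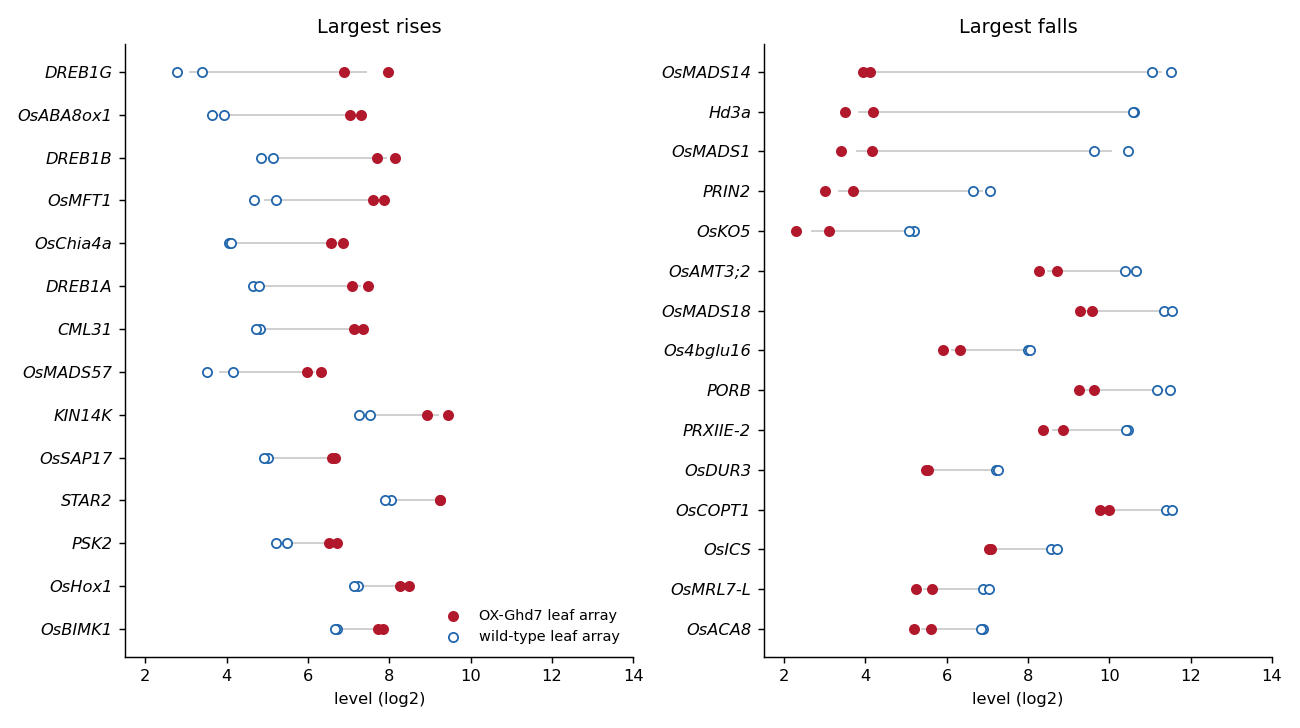
Levels (horizontal axis, log2) of the 14 largest rises and 15 largest falls among named genes, with 1 filled red point per OX-Ghd7 leaf array and 1 open blue point per wild-type leaf array. Grey lines join the group means, and lack of overlap between the groups was a condition for choosing the 29 genes.

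Among the named rises singled out, the 3 strongest of transcription factor genes were all of the DREB1 family. Members of that family bind dehydration-responsive elements and switch on cold and drought genes. Genes without a name were not sorted by function. DREB1G read 6.89 and 7.97 in OX-Ghd7 leaves, against 3.39 and 2.78 in wild-type leaves, at least 20.3-fold higher (change 4.34 ± 0.33, adjusted p = 0.000207). The other 2 lay above the array median in both groups. DREB1B read 7.70 and 8.13 in OX-Ghd7 leaves, against 4.85 and 5.15 in wild-type leaves, and DREB1A read 7.48 and 7.07, against 4.65 and 4.79. Of 12 measured DREB, ERF and AP2 genes, 4 rose and none fell, beside 431 (2.41%) that rose and 1138 (6.36%) that fell among all 17905 genes, each counted once by its brightest leaf probe set. The fourth was OsDREB1E at 0.61 ± 0.12, which lost its call when wild-type leaf replicate 2, either transgenic leaf or either wild-type panicle was left out (adjusted p up to 0.143). The other 8 members ranged from -0.23 to 0.38, and the median of the list was 0.03, beside -0.018 for all genes.

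OsABA8ox1 encodes an abscisic acid 8′-hydroxylase, the enzyme that starts the breakdown of abscisic acid, and read 7.03 and 7.31 in OX-Ghd7 leaves, against 3.94 and 3.63 in wild-type leaves. It was at least 10.5-fold higher (change 3.39 ± 0.17, adjusted p = 2.32e-05). Of 23 genes of abscisic acid, drought and LEA proteins, 2 rose and 3 fell, beside 2.41% and 6.36% of all genes. The second rise was that of OsSAPK4, a protein kinase of abscisic acid and osmotic signalling, at 0.46. The dehydrin gene OsDhn1 fell (-0.82), with further probe sets at -0.11 and -0.09 that did not pass. The other falls were those of the dehydrin gene RAB16C (-0.77) and of the kinase gene OsSAPK3 (-0.70). None of the last 4 passed with every array left out in turn, so OsABA8ox1 was the 1 member that did.

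CML31, a calmodulin-like calcium sensor, read 7.34 and 7.12 in OX-Ghd7 leaves, against 4.82 and 4.72 in wild-type leaves (change 2.46 ± 0.17, adjusted p = 0.000115). CML15, of the same family, changed by 2.29 ± 0.23 and passed with any array left out, while its adjusted p in the leaf-only fit was 0.0539. Of 26 calmodulin-like genes 2 rose and 1, CML8, fell by 0.60, beside 2.41% of all genes that rose and 6.36% that fell. Of 51 calcium-dependent and CIPK kinases 3 rose, OsCPK4 (1.2), OsCIPK21 (0.84) and CPK13 (0.73), and none fell. A second probe set of CPK13 did not pass, at 0.30. OsSAP17, a zinc finger protein of the stress-associated A20/AN1 type, read 6.67 and 6.59 in OX-Ghd7 leaves, against 5.01 and 4.91 in wild-type leaves (change 1.67 ± 0.11, adjusted p = 0.000117). Of 13 genes of that family 3 rose, with OsSAP1 at 0.84 and OsSAP11 at 0.52, and none fell. OsBIMK1, a mitogen-activated protein kinase of defence and stress signalling, changed by 1.10 ± 0.12, whereas MPK15 and OsBIMK2 of the same family fell by 1.13 and 1.16. PSK2 encodes a precursor of phytosulfokine, a peptide growth factor, and changed by 1.26 ± 0.14.

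Defence and secretion genes moved in both directions. OsChia4a, a chitinase gene, read 6.86 and 6.56 in OX-Ghd7 leaves, against 4.06 and 4.10 in wild-type leaves, at least 6.19-fold higher (adjusted p = 9.32e-05). Among all genes 2.41% rose and 6.36% fell. Of 19 pathogenesis-related and chitinase genes 4 rose, the others being OsChia2b (0.94), OsChia2a (0.86) and OsNPR4 (0.66), and PAL fell. For these last 3 rises the adjusted p reached 0.183 to 0.240 with an array left out, and OsChia4a passed throughout. A further probe set of OsChia2a did not pass, at -0.22, and another passed at 0.99. Of 29 genes of protein folding in the endoplasmic reticulum 3 rose, the chaperone gene BIP1 (0.83), the cell death suppressor OsBI-1 (1.03) and the disulfide isomerase OsPDIL2-3 (0.67), and OsPDIL1-3 fell by 0.89. This list, like those of the A20/AN1 proteins and of the mitogen-activated kinases, was written after the values of named genes had been seen, so its count lends no support of its own.

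The other rises singled out were in several families. OsMFT1, a member of the florigen protein family that delays flowering, is described with the flowering genes below. OsMADS57, an AGL17-like MADS gene known to act in tillering, read 5.97 and 6.32 in OX-Ghd7 leaves, against 3.51 and 4.15 in wild-type leaves, at least 4.99-fold higher. KIN14K, a kinesin motor gene, changed by 1.80 ± 0.18, and 1 of its other 2 probe sets passed at 1.31 while the dimmest did not, at 0.08. STAR2, which encodes part of a transporter needed for aluminium tolerance, changed by 1.28 ± 0.12, with OX-Ghd7 leaves at 9.25 and 9.24, against 8.04 and 7.90 in wild-type leaves. A second, dimmer probe set of STAR2 did not pass, at 0.05. OsHox1, a homeodomain-leucine zipper gene, changed by 1.19 ± 0.13.

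Hd3a, the florigen gene, read 4.18 and 3.50 in OX-Ghd7 leaves, against 10.60 and 10.58 in wild-type leaves, a change of -6.75 ± 0.21. OsMADS14, an APETALA1-like gene, was measured by 4 probe sets and fell on each, by 7.25, 6.19, 4.84 and 3.40 on the log2 scale, so its size depends on the probe set. OsMADS1, a SEPALLATA-like gene of the floret counted in another list, read 4.15 and 3.41 in OX-Ghd7 leaves, against 10.45 and 9.63 in wild-type leaves. OsMADS18, APETALA1-like too, stayed well above the array median and read 9.28 and 9.58 in OX-Ghd7 leaves, against 11.35 and 11.53 in wild-type leaves. OsMFT1 moved the other way and read 7.60 and 7.86 in OX-Ghd7 leaves, against 5.22 and 4.67 in wild-type leaves (change 2.79 ± 0.20, adjusted p = 0.000158). Of 23 measured flowering genes 5 fell and 2 rose, beside 6.36% and 2.41% of all genes. The remaining falls were OsMADS34 (-1.25 ± 0.21) and SPIN1 (-1.03 ± 0.12), an RNA-binding protein that delays flowering. OsMADS50, an activator of flowering related to SOC1, rose by 0.50 and did not pass with any 1 array left out (adjusted p up to 0.182). With either transgenic leaf left out OsMADS34 did not pass, and both of its group means lay under the array median. The other 16 members, among them the light receptor genes PhyB (-0.52), phyC (-0.21) and PHYA (0.03), ranged from -0.57 to 0.36. None of the 5 clock genes passed, with a range down to -0.53.

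Enzymes that make chlorophyll were lower in transgenic leaves at many steps. Of 17 measured genes of tetrapyrrole and chlorophyll synthesis 11 fell and none rose, with a median of -0.69, beside 6.36% of all genes that fell. This list was written after the values of named genes had been seen. The largest falls were those of both genes for protochlorophyllide oxidoreductase, the light-dependent step that yields chlorophyllide. PORB read 9.61 and 9.26 in OX-Ghd7 leaves, against 11.17 and 11.49 in wild-type leaves (change -1.90 ± 0.19, adjusted p = 0.00106). PORA read 4.31 and 3.94 in OX-Ghd7 leaves, against 5.89 and 6.58 in wild-type leaves, at least 4.33-fold lower (adjusted p = 0.00134). The 2 groups did not overlap for either gene, as for every probe set that passed.

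Apart from HO2 in a side branch, the falls lay between the start of the pathway and protochlorophyllide reduction, with some steps between that did not pass. At its start, GluTR, the glutamyl-tRNA reductase, changed by -0.63 ± 0.14. GSA, the aminotransferase that makes 5-aminolevulinic acid, read 8.84 and 8.94 in OX-Ghd7 leaves, against 10.15 and 10.70 in wild-type leaves (change -1.53 ± 0.17). A second, dim probe set of GSA did not pass, at -0.19. In the common porphyrin steps, the uroporphyrinogen decarboxylases UPD2 and UPD1 changed by -1.09 ± 0.13 and -0.64 ± 0.12, the coproporphyrinogen oxidase CPX by -0.96 ± 0.17 and the protoporphyrinogen oxidase PPO by -0.69 ± 0.15. HEMD, the uroporphyrinogen synthase, did not pass, at 0.26. Of the 3 subunits of magnesium chelatase, which commits porphyrin to chlorophyll, CHLI changed by -1.13 ± 0.18 and CHLH by -0.95 ± 0.16, while CHLD did not pass, at -0.35. CHLH read 11.30 and 11.15 in OX-Ghd7 leaves, against 11.96 and 12.39 in wild-type leaves. A second, dim probe set of CHLH did not pass, at 0.01. The last steps, chlorophyll synthase CHLG (-0.40), geranylgeranyl reductase CHLP (-0.44) and chlorophyllide a oxygenase CAO (-0.15), did not pass. In the branch to the phytochrome chromophore, the heme oxygenase HO2 changed by -1.45 ± 0.23 and its relative SE5 by 0.03 ± 0.12.

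With any 1 array left out, PORA, PORB, GSA and UPD2 of this list still passed, and the other 7 lost their call without at least 1 array (adjusted p up to 0.227). The number that fell was 4 without transgenic leaf replicate 1, 5 without transgenic leaf replicate 2 and 7 without wild-type leaf replicate 2. When only the 4 leaf arrays were fitted, PORB alone passed, beside 0.352% of all genes that rose and 0.815% that fell in that fit, and the effect of each gene was the same by construction. In panicles none of the 17 passed, with a median of -0.12, beside 1.64% of all genes that rose and 1.99% that fell there. The leaf effect differed from the panicle effect for 7 of the 17, beside 6.43% of all genes. That contrast contains the leaf effect, so a higher share is partly built into any list with many leaf falls. An overlapping list of 7 genes of chlorophyll synthesis and chloroplast development held 5 falls in leaves, beside 6.36% of all genes that fell. Genes such as CHLH and CHLI are counted in both lists, so this count lends no separate support.

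**Figure D3:**
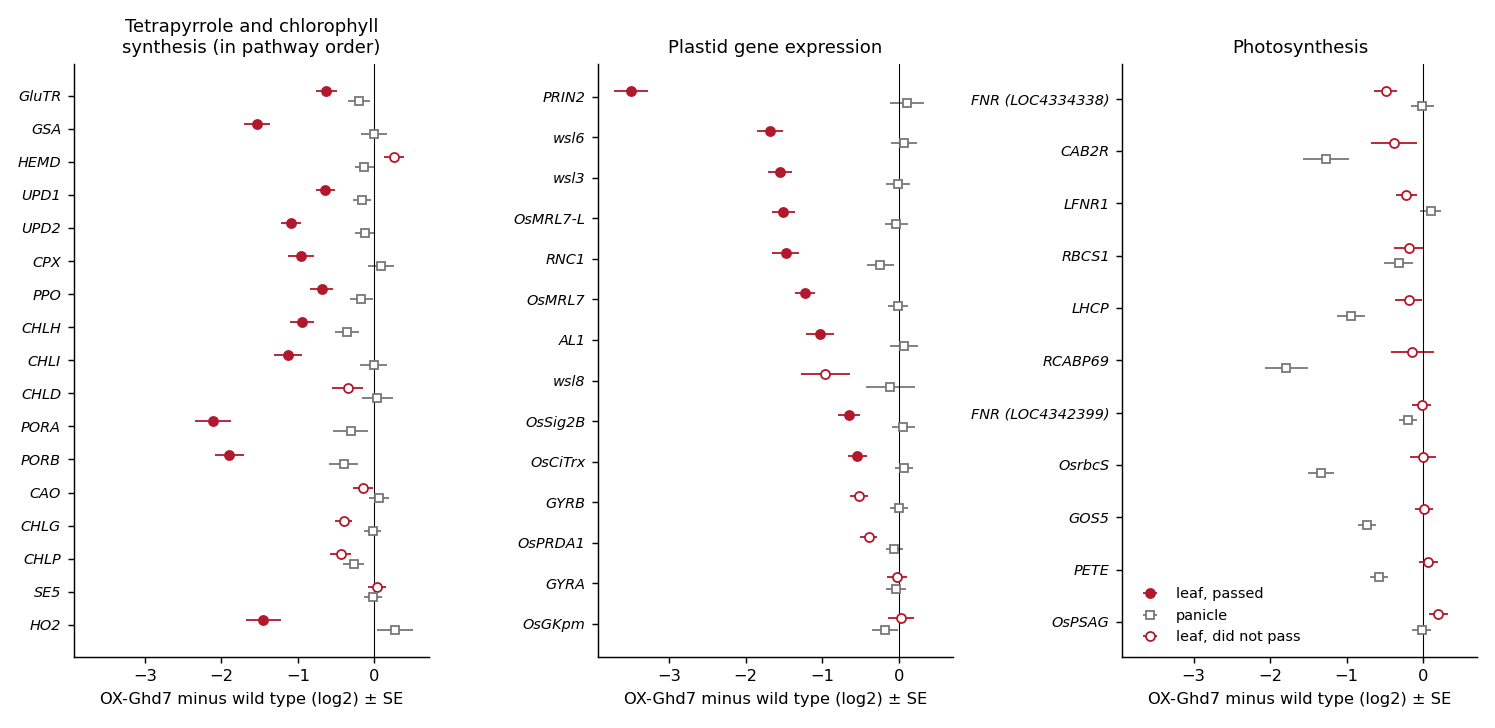
OX-Ghd7 minus wild type (horizontal axis, log2, bars are SE of the fit) for each measured gene of 3 lists, in young leaves (red circles, filled where the gene passed) and panicles (grey squares). Tetrapyrrole genes run in pathway order from glutamate at the top, with the heme oxygenases SE5 and HO2 last, and 11 of 17 fell in leaves, against 9 of 14 plastid gene expression genes and 0 of 11 photosynthesis genes.

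Of 14 measured genes that plastids need to express their own genomes 9 fell and none rose, beside 6.36% and 2.41% of all genes. Their median was -0.99, and this list too was written after values had been seen. PRIN2, known in Arabidopsis as a redox-linked factor of the plastid-encoded RNA polymerase, read 3.01 and 3.70 in OX-Ghd7 leaves, against 7.07 and 6.64 in wild-type leaves. That was at least 11.3-fold lower (change -3.50 ± 0.22, adjusted p = 8.49e-05). The white-stripe leaf genes wsl6 and wsl3, named for rice mutants with pale young leaves, changed by -1.68 ± 0.17 and -1.55 ± 0.16. OsMRL7-L and OsMRL7, a pair of plastid thioredoxin-like proteins needed for chloroplast development, changed by -1.51 ± 0.15 and -1.23 ± 0.13. OsMRL7-L read 5.25 and 5.63 in OX-Ghd7 leaves, against 6.88 and 7.03 in wild-type leaves. A second, dim probe set of OsMRL7-L did not pass, at -0.05. RNC1, a splicing factor of plastid introns, changed by -1.48 ± 0.18 on 1 probe set and -1.44 ± 0.17 on the other. AL1 changed by -1.03, the sigma factor OsSig2B by -0.65 and the plastid thioredoxin OsCiTrx by -0.54. The other 5, GYRB (-0.52), OsPRDA1 (-0.39), wsl8 (-0.96), GYRA (-0.02) and OsGKpm (0.03), did not pass. PRIN2, wsl6, wsl3, OsMRL7-L, RNC1 and OsMRL7 passed with any array left out, and AL1, OsSig2B and OsCiTrx did not (adjusted p up to 0.196). 3 of the 9 passed in the leaf-only fit, beside 0.815% of all genes that fell in that fit. In panicles none of the 14 passed, and 6 differed between the tissues, beside 6.43% of all genes.

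Of 11 structural genes of photosynthesis none passed, beside 6.36% of all genes that fell, so few calls would be looked for in a list of this size. Their difference from the tetrapyrrole list was not tested, and their effects ranged from -0.49 for a ferredoxin-NADP reductase gene to 0.20 for OsPSAG of photosystem I, with a median of -0.14. The small subunit gene of Rubisco, OsrbcS, read 14.35 and 14.33 in OX-Ghd7 leaves, against 14.32 and 14.35 in wild-type leaves, and the light-harvesting gene CAB2R read 13.45 and 13.48, against 13.81 and 13.86. These genes lay at the top of the range of the array, where the scale may be compressed. In panicles 5 of the 11 fell, beside 1.99% of all genes. Among 18 genes of plastid isoprenoid, carotenoid and tocopherol synthesis 3 fell. CLA1, a deoxyxylulose phosphate synthase at the entry to the pathway, read 7.29 and 6.84 in OX-Ghd7 leaves, against 8.77 and 9.62 in wild-type leaves (change -2.13 ± 0.25, adjusted p = 0.00208). A second probe set of CLA1 changed by -1.99 ± 0.32. CDPMEK of the same pathway fell by 0.78 and the tocopherol gene OsVTE2-2 by 0.65. CLA1 passed with any array left out, and the other 2 did not (adjusted p up to 0.215). The 3 phytoene synthase genes, OsPSY1 (-0.56), OsPSY2 (-0.20) and OsPSY3 (-0.45), did not pass. Of 26 plastid proteases and translocation genes 4 fell, OsEGY1 (-1.14), CpSecY (-0.59), LTD (-0.59) and OsFTSH1 (-0.50), and none of these 4 passed with every array left out in turn (adjusted p up to 0.191). A second, dim probe set of CpSecY did not pass, at -0.07. Outside these lists, the plastid peroxiredoxin PRXIIE-2 read 8.87 and 8.36 in OX-Ghd7 leaves, against 10.45 and 10.42 in wild-type leaves (change -1.82 ± 0.17, adjusted p = 0.000693). OsICS, an isochorismate synthase of the pathway to phylloquinone and salicylic acid, read 7.04 and 7.08 in OX-Ghd7 leaves, against 8.57 and 8.72 in wild-type leaves. In whole leaves, fewer cells of a type and less RNA per cell cannot be told apart, and this holds for all levels given here.

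Of 20 measured genes for cytosolic ribosomal proteins 11 fell and none rose, beside 6.36% and 2.41% of all genes. Their median was -0.67, beside -0.018 for all genes. RPL11 read 8.44 and 8.30 in OX-Ghd7 leaves, against 9.52 and 9.38 in wild-type leaves (change -1.08 ± 0.12, adjusted p = 0.00134). RPL7A-2 read 9.01 and 8.93 in OX-Ghd7 leaves, against 9.98 and 10.03 in wild-type leaves, and RPS7 read 8.85 and 8.84, against 9.93 and 9.77. The falls were similar in size, from 0.58 for RPS10 to 1.09 for RPL3, and the 9 members that did not pass lay between -0.48 and 0.10. RPS3A was measured by 4 probe sets that changed by -0.81, -0.99, -0.96 and -0.54, all of which passed. With any array left out, 7 of the 11 still passed, and 8 without transgenic leaf replicate 1 and 7 without transgenic leaf replicate 2 did. RPL11 and RPL7A-2 passed in the leaf-only fit, beside 0.815% of all genes that fell in that fit. In panicles the median of the list was -0.01 and none passed, beside 1.64% of all genes that rose and 1.99% that fell. The leaf effect differed from the panicle effect for 8 of the 20, beside 6.43% of all genes.

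Factors that build ribosomes or act in translation formed a list written after values had been seen. Of 25 genes 8 fell, none rose and 17 did not pass, beside 6.36% of all genes that fell and 2.41% that rose. The median of the list was -0.42. RACK1A and RACK1B, scaffold proteins of the small ribosomal subunit, changed by -1.08 ± 0.12 and -1.21 ± 0.14. RACK1A read 9.28 and 9.18 in OX-Ghd7 leaves, against 10.21 and 10.40 in wild-type leaves. BOP1 changed by -1.09 ± 0.15, and its partner PES in maturation of the large subunit did not pass, at -0.42. The elongation factor gene EF-1-alpha (-0.46) and the initiation factor gene eIF-4A-1 (-0.21) did not pass either. RACK1A, RACK1B and BOP1 passed with any array left out, and the other 5 did not (adjusted p up to 0.149).

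**Figure D4:**
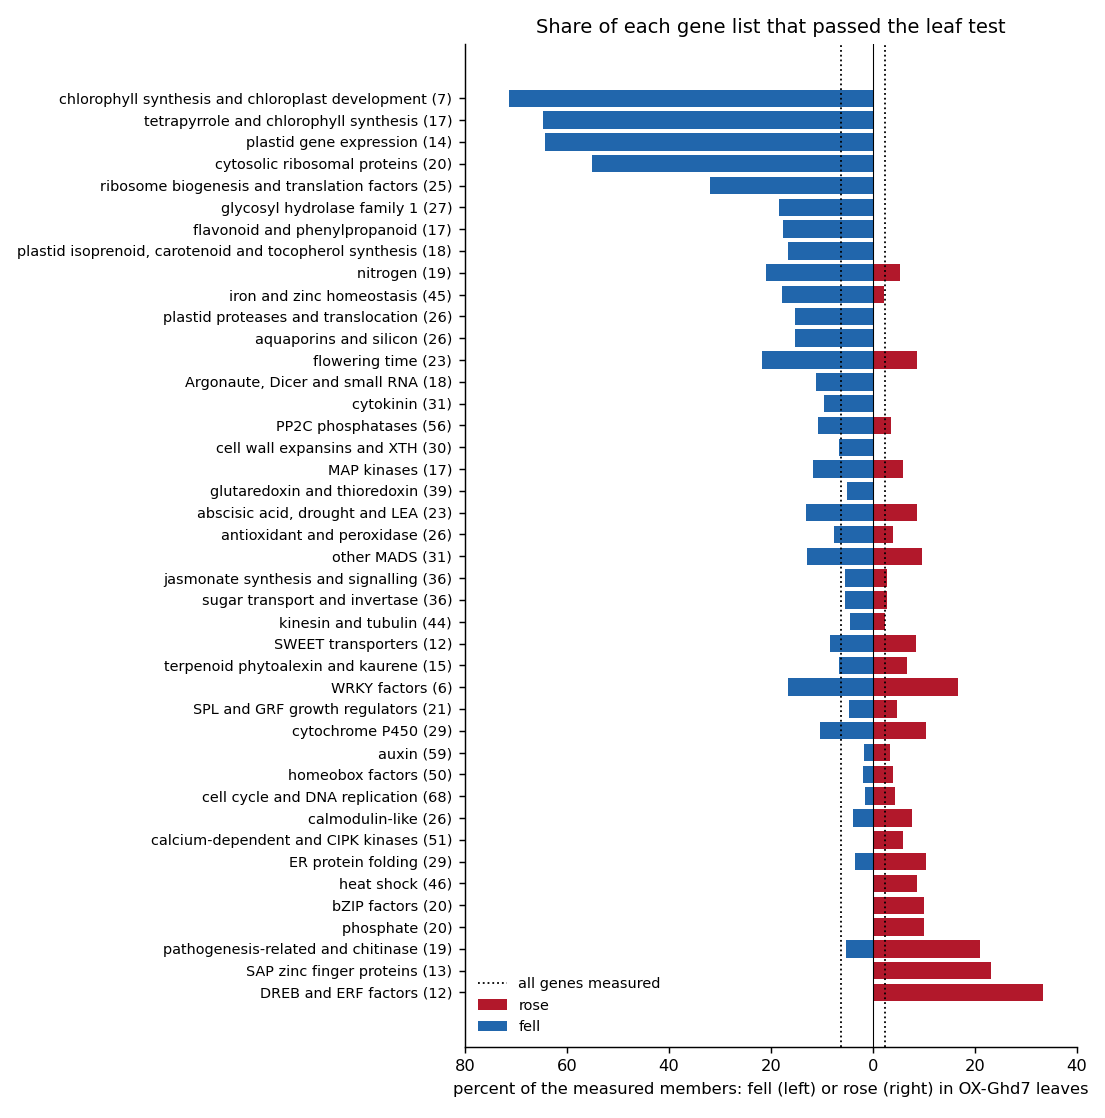
Percent of the measured members of each gene list that fell (blue, left) or rose (red, right) in OX-Ghd7 leaves, for lists with at least 2 members that passed. The number measured stands in brackets, dotted lines mark all 17905 genes (6.36% fell and 2.41% rose), and some genes belong to more than 1 list.

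Of 26 aquaporin and silicon transport genes 4 fell, none rose and 22 did not pass, with a median of -0.22, beside 6.36% of all genes that fell. OsPIP2;5, a water channel of the plasma membrane, read 4.31 and 4.66 in OX-Ghd7 leaves, against 8.38 and 6.82 in wild-type leaves, so the wild-type arrays differed by more than 1 on the log2 scale (change -3.12 ± 0.39, adjusted p = 0.00283). Its neighbour gene OsPIP2;4 changed by -1.82 ± 0.24, OsPIP2;7 by -2.14 ± 0.31 and OsPIP1;3 by -1.34 ± 0.22. OsPIP2;7 and OsPIP1;3 lost their calls when transgenic leaf replicate 2 was left out (adjusted p = 0.0606 and 0.0919), and none of the 4 passed in the leaf-only fit.

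Of 19 nitrogen genes 4 fell, 1 rose and 14 did not pass, with a median of -0.03, beside 6.36% of all genes that fell and 2.41% that rose. OsAMT3;2, an ammonium transporter, read 8.27 and 8.72 in OX-Ghd7 leaves, against 10.39 and 10.66 in wild-type leaves (change -2.03 ± 0.22, adjusted p = 0.00141). OsGDH1, a glutamate dehydrogenase, changed by -1.07 ± 0.11, and OsAMT3;3 by -0.92 and the nitrate transporter OsNRT2.3 by -0.79. OsGLN1;2, a cytosolic glutamine synthetase, was the 1 rise among 19 nitrogen genes and read 11.82 and 11.92 in OX-Ghd7 leaves, against 11.20 and 10.98 in wild-type leaves. OsDUR3, a urea transporter outside that list, read 5.55 and 5.48 in OX-Ghd7 leaves, against 7.22 and 7.26 in wild-type leaves (change -1.73 ± 0.11, adjusted p = 9.61e-05). Of 45 iron and zinc genes 8 fell, 1, OsHMA4 (0.58), rose and 36 did not pass, with a median of -0.17. The zinc transporters OsZIP4, OsZIP2 and OsZIP7 changed by -2.23, -1.16 and -0.83. The metal-chelate transporters OsYSL13, osysl16 and osysl12 changed by -1.49, -0.96 and -0.79, and a second, dim probe set of osysl12 did not pass, at -0.00. The other falls were OsNAAT1 (-1.2), an enzyme of mugineic acid synthesis, and the metal transporter NRAMP6 (-0.54). Of these, OsZIP4, OsYSL13 and osysl16 passed with any array left out. OsCOPT1, a copper transporter, averaged 9.88 ± 0.17 in OX-Ghd7 leaves and 11.46 ± 0.09 in wild-type leaves (log2, SD, n = 2 each). OsACA8, a calcium pump, changed by -1.46 ± 0.15, with a second probe set at 0.16 that did not pass. In the phosphate list OsSPX1 (1.16) and OsPHO1;3 (0.97) rose, and neither passed with every array left out in turn (adjusted p up to 0.183).

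Falls in secondary metabolism included beta-glucosidase and phenylpropanoid genes. Os4bglu16, a family 1 glycosyl hydrolase of the beta-glucosidase type, fell by 1.91 on 1 probe set and 1.89 on the other. The brighter probe set read 7.06 and 6.86 in OX-Ghd7 leaves, against 8.77 and 8.92 in wild-type leaves. Of 27 such genes 5 fell and none rose, beside 6.36% of all genes that fell, the others being Os5bglu20 (-1.40), Os4bglu18 (-1.19), Os4bglu12 (-1.02) and Os4bglu13 (-0.92). Os4bglu16 and Os4bglu18 passed in the leaf-only fit. Further probe sets of Os4bglu12 (0.11) and Os4bglu13 (0.05) did not pass. Of 17 flavonoid and phenylpropanoid genes 3 fell, the phenylalanine ammonia-lyase PAL (-1.38) and the cinnamyl alcohol dehydrogenases OsCAD2 (-1.04) and OsCAD6 (-0.80), and OsCAD2 passed with any array left out. OsCHS1, chalcone synthase at the entry to flavonoids, did not pass on its brightest probe set (-1.80 ± 0.44, adjusted p = 0.0588), but its other 4 probe sets fell, by 2.66, 2.39, 1.30 and 1.30. On that brightest probe set the OX-Ghd7 leaves were 11.32 and 10.02, against 12.55 and 12.40 in wild-type leaves, so the 2 transgenic arrays differed by more than 1. OsKO5, a kaurene oxidase-like P450 gene of diterpenoid metabolism, read 2.28 and 3.10 in OX-Ghd7 leaves, against 5.20 and 5.06 in wild-type leaves, at least 5.43-fold lower. In its list of 15 terpenoid phytoalexin and kaurene genes 1 fell and 1 rose.

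In the families named next, counts lay near or below the shares over all genes, 6.36% that fell and 2.41% that rose. They show nothing particular to these families. None of 30 cellulose synthesis genes, 12 bHLH and PIF genes, 11 panicle meristem genes, 10 chromatin genes, 9 starch genes or 7 brassinosteroid genes passed. Of 68 cell cycle and replication genes 3 rose and 1 fell, of 59 auxin genes 2 rose and 1 fell, and of 50 homeobox genes 2 rose and 1 fell. Some other lists lay further from the shares over all genes, which was not tested. Of 46 heat shock genes 4 rose and none fell, and of 31 MADS genes, some counted above, 3 rose and 4 fell. In lists written after values had been seen, 6 of 56 PP2C phosphatase genes fell and 2 rose. Of 29 cytochrome P450 genes 3 rose and 3 fell, and of 20 bZIP genes 2 rose and none fell.

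The calls in leaves were set beside those in panicles. The labels do not name the transgenic line of either tissue, so tissue, stage and line cannot be told apart. Of the 2529 probe sets that passed in leaves, 110 also passed in panicles, which was 4.35% of the leaf calls and 6.66% of the 1652 panicle calls. Over all probe sets 1.05% rose and 1.84% fell in panicles. Of the 110, 33 rose in both tissues, 21 fell in both, 25 rose in leaves and fell in panicles, and 31 fell in leaves and rose in panicles. The contrast between the effects itself passed for 1196 of the 2529 (47.3%), beside 3.84% of all probe sets. The 2529 were chosen by the leaf effect, which is part of this contrast. The higher share is therefore partly built in and lends no support of its own. Across the 2529 probe sets, which are not independent and share arrays within each tissue, the 2 effects correlated with r = 0.198. The 4 named genes with the clearest difference were OsMADS14, Hd3a, OsABA8ox1 and OsMADS1. OsMADS14 changed by 0.26 in panicles, where it read 13.10 and 13.11 in OX-Ghd7 panicles, against 12.84 and 12.85 in wild-type panicles, and the leaf effect differed from that by -7.51. Hd3a was low in both panicle groups, at 4.28 and 4.20 in OX-Ghd7 panicles, against 4.26 and 3.94 in wild-type panicles. OsGLN1;2 and PSK2 moved in opposite directions in the 2 tissues and passed in both, with panicle effects of -0.89 and -0.72. OsChia4a rose in both, by 2.63 in leaves and 0.92 in panicles, and PRXIIE-2 fell in both, with a panicle effect of -0.82. None of 11 panicle meristem genes passed in leaves and 6 rose in panicles, beside 1.64% of all genes that rose there, and the effects differed between tissues for 3 of the 11. Of 14 YABBY and TCP genes 1, PCF8, fell in leaves and 8 fell in panicles, beside 1.99% of all genes. The effects differed for 7 of the 14, beside 6.43% of all genes.

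**Figure D5:**
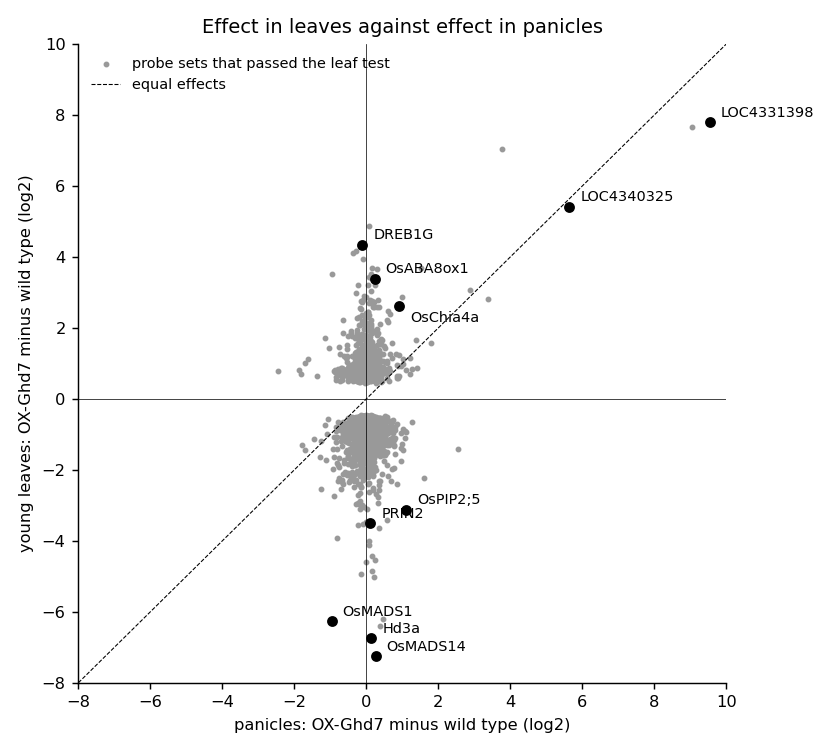
OX-Ghd7 minus wild type in young leaves (vertical axis, log2) against the same in panicles (horizontal axis, log2) for the 2529 probe sets that passed in leaves. Most points lie near 0 on the panicle axis, while LOC4340325 lies near the dashed line of equal effects and LOC4331398 right of it, with the larger effect in panicles.

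Some genes that moved together are neighbours on a chromosome. In the order of protein-coding genes in the RefSeq table there were 11656 adjacent pairs with both genes measured, of which 60 pairs fell together, 17 rose together and 37 moved in opposite directions. A gene next to one that rose had itself risen in 6.24% of cases, beside 2.34% of all places, and next to one that fell it had fallen in 7.82% of cases, beside 6.58%. Pairs of the same family were OsMADS14 and OsMADS34, OsPIP2;4 and OsPIP2;5, Os4bglu16 and Os4bglu18, Os4bglu12 and Os4bglu13, OsYSL13 and osysl12, and OsChia4a and OsChia2b. Probe sets of such relatives may share transcripts by cross-hybridisation, which was not tested.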

How the data were processed

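Labelled RNA from 2 biological replicates per group was hybridised to the Affymetrix rice array. The deposited values are log2 expression per probe set, made by the authors with RMA (per the submitters' processing notes), whose version the sources used here do not give. Array medians fell into separate ranges for the 2 tissues, so levels were compared within a tissue only. The array number limits the precision.

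The deposited log2 values were used unchanged. Of 57381 probe sets, 123 AFFX controls and 64 reporters were left out. limma 3.58.1 in R 4.3.3 fitted 4 group means to 8 arrays (4 residual degrees of freedom), with empirical Bayes moderation and Benjamini-Hochberg adjustment over 57194 probe sets. The procedure was run on simulated data with independent normal noise and, for each probe set, the same spread in all arrays. That run could not test the effect of unequal spread between the tissues. A platform table and RefSeq gene names paired 22436 probe sets with 1 gene, 95 with several and 34663 with none. Each of 17905 genes was counted by its probe set with the highest leaf mean.

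The members and gene lists were chosen with earlier results of these data known. Named were up to 15 rises and 15 falls that passed both the 8-array and leaf-only fits without overlap of the groups. Also named were up to 4 members of each list by p, the flowering list and the 2 largest changes each way over all probe sets. The 4 genes with the clearest tissue difference were named too. Other genes were named after their values were seen. Normalization, dim-probe filters, the arrays fitted, moderation, array weights, replicate blocks, a 1.2-fold minimum and leaving out arrays were varied.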

Additional observations from a re-analysis of the deposited data

Results flagged for a closer look

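The difference between OX-Ghd7 and wild type was not the same in young leaves and panicles for the genes below. The test was limma's test of the difference itself, at an adjusted p under 0.05 over all probe sets. The labels do not say whether leaves and panicles came from the same transgenic line, so tissue, stage and line cannot be told apart. Each value is the leaf effect minus the panicle effect on the log2 scale, and it rests on 2 arrays per group.

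Among flowering and MADS genes, the difference was -6.89 for Hd3a, -5.30 for OsMADS1, -7.51 for OsMADS14, -2.17 for OsMADS18, -1.31 for OsMADS34 and 2.27 for OsMADS57. It was 2.88 for OsMFT1 and -0.92 for SPIN1. For stress, calcium and hormone genes that rose in leaves, the difference was 2.73 for DREB1A, 2.97 for DREB1B, 4.45 for DREB1G, 3.16 for OsABA8ox1, 2.55 for CML15 and 2.41 for CML31. It was 0.92 for CPK13, 1.18 for OsCPK4, 0.82 for OsBIMK1, 1.2 for OsSAP11, 1.24 for OsSAP17 and 1.71 for OsChia4a. It was 1.98 for PSK2, 1.52 for OsHox1, 1.01 for BIP1, 1.14 for OsBI-1 and 1.15 for OsPDIL2-3. For stress and signalling genes that fell in leaves, the difference was -1.17 for CML8, -1.11 for MPK15, -1.17 for OsDhn1, -1.42 for RAB16C, -0.90 for OsSAPK3 and -1.09 for OsPDIL1-3. Among tetrapyrrole genes, the difference was -1.12 for CHLI, -1.04 for CPX, -1.53 for GSA, -1.72 for HO2, -1.80 for PORA and -1.50 for PORB. It was -0.98 for UPD2. Among other plastid genes, the difference was -2.56 for CLA1, -1.13 for OsEGY1, -2.05 for OsICS, -1.22 for OsMRL7, -1.48 for OsMRL7-L and -3.61 for PRIN2. It was -1.24 for RNC1, -1.54 for wsl3 and -1.75 for wsl6. For ribosome and translation genes, the difference was -1.27 for BOP1, -0.94 for RACK1A, -1.24 for RACK1B, -1.08 for RPL11, -1.03 for RPL3 and -0.97 for RPL7A-2. It was -0.79 for RPS3A and -0.99 for RPS7. Among transport and nutrient genes, the difference was -1.95 for OsACA8, -2.02 for OsAMT3;2, -2.10 for OsCOPT1, -1.51 for OsDUR3, -0.86 for OsGDH1 and 1.67 for OsGLN1;2. It was 1.18 for OsPHO1;3, -1.54 for OsPIP1;3, -4.22 for OsPIP2;5, -1.89 for OsYSL13, -1.46 for OsZIP4 and -0.98 for osysl16. It was 1.34 for STAR2. For secondary metabolism and the remaining genes, the difference was -2.14 and -1.98 for Os4bglu16 on 2 probe sets, -1.17 for OsCAD2, -2.22, -1.61, -1.51 and -2.48 for OsCHS1 on 4 probe sets, -2.78 for OsKO5, 1.81 for KIN14K and -1.75 for LOC4331398. It was 3.25 for a probe set paired with no gene.

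LOC4331398 rose in both tissues, and its negative difference means a larger panicle effect. 2 reporter probe sets, which enter no comparison, were higher in OX-Ghd7 leaves than in wild-type leaves by 8.15 and 7.81 on the log2 scale. In panicles these 2 differed by 0.01 and 0.27. They were not tested, and the sequence they detect is not named in the sources used here.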

How the results depend on the processing

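In the leaf-only fit (2 residual degrees of freedom) 101 probe sets rose and 224 fell, and 2 ribosomal, 1 tetrapyrrole and 3 plastid gene expression genes fell. Array weights gave 488 rises. A test against a 1.2-fold change gave 264 rises, 746 falls, 1051 differences between tissues and 6 tetrapyrrole falls. With each array left out in turn, rises ran from 281 to 1318, falls from 770 to 1974 and tissue differences from 630 to 2670. Falls ran from 7 to 13 for ribosomal genes and from 4 to 12 for tetrapyrrole genes. The cause of these shifts was not tested, beyond the fewer arrays fitted. Other normalizations, dim-probe filters, an intensity trend and 1 probe set per gene kept these counts within 1.5 times, and no named gene reversed in any alternative. Of the 122 genes and probe sets named and called, 40 passed in the leaf-only fit and 71 without transgenic leaf replicate 2.

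Same-numbered arrays shared little deviation from their group means, which correlated across probe sets with r of 0.007 to 0.065. These values cannot show whether such samples were collected or processed together. With the replicate number as a block within each tissue 527 probe sets rose and 1289 fell, and with a block shared by both tissues 780 rose and 1684 fell. A count of motifs in promoters was not run.

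With 2 arrays per group the precision is limited, most of all for dim probe sets.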
